A study of Mus musculus with 6 samples.

Results

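Crispld2, Esm1, Cyp4f15 and Hpgds are 4 protein-coding genes chosen by their measured RPKM, a read count scaled by gene length and library size, in neural stem and progenitor cells (NSC/NPCs) cultured from the fetal mouse hypothalamus. They were picked because all 3 HE samples lay well below all 3 NC samples in the deposited table of RPKM and read counts. They are 4 of the 22048 genes in that table and 4 of the 13952 genes with enough reads to be tested, so all 4 members passed the filter on low counts. The difference between HE and NC in these 4 genes is therefore given as a description, with no test.

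HE stands for prenatal high estradiol exposure and NC for its control. Pregnant C57BL/6 mice, 8 weeks old, received estradiol valerate, an esterified estradiol, as a daily gavage of 100 μg/kg between E5.5 and E11.5 in the HE group, and corn oil solvent alone in the NC group, although the sample labels call NC untreated. Hypothalami of male fetuses were dissociated at E14.5 and grown as neurospheres, which are floating clusters of dividing NSC/NPCs, in medium with EGF and bFGF. RNA was sequenced from 3 HE and 3 NC samples at the first passage, each made from cells of 2 mice, so a sample is a pool and the spread between samples includes differences between cultures. Estradiol was given to the dam and not to the cultured cells, which were isolated 3 days after the last dose.

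The 4 genes encode proteins with different roles. Crispld2 is a secreted glycoprotein of the CAP superfamily, a family of cysteine-rich extracellular proteins. It carries LCCL domains, binds lipopolysaccharide and is known as a glucocorticoid-induced gene of lung and other mesenchyme. Esm1, also called endocan, is a small secreted proteoglycan that carries a dermatan sulfate chain and is known as a VEGF-induced product of endothelial tip cells. Cyp4f15 is a cytochrome P450 of the family that hydroxylates the end of fatty acid chains, including leukotrienes and other eicosanoids. Hpgds is the hematopoietic prostaglandin D synthase, a cytosolic glutathione transferase that turns prostaglandin H2 into prostaglandin D2, and is known from mast cells, megakaryocytes and microglia. The set thus holds a pair of secreted proteins and a pair of lipid enzymes.

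The genes lie on 4 different chromosomes in the RefSeq annotation of GRCm38.p6. Crispld2 (ENSMUSG00000031825) lies at chr8:119992438-120052794, Esm1 (ENSMUSG00000042379) at chr13:113209659-113218104, Cyp4f15 (ENSMUSG00000073424) at chr17:32685631-32703352 and Hpgds (ENSMUSG00000029919) at chr6:65117293-65144981. The whole of Esm1 lies within the span of the lncRNA Gm41069, which was not analysed here. The libraries were strand-specific, but the use of strand in counting is not given in the sources used here, so reads of such an overlapping RNA cannot be told apart from Esm1 reads. Cyp4f15 has close paralogs beside it on chromosome 17, and how reads shared by paralogs were counted is not given either.

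The promoter-side sequence of 3 of the genes is shown because the 4 genes were lower in the same samples and the letters show whether their starts have an element in common. The sequences come from RefSeq, read 5′ to 3′ on the strand of the gene, and end at the annotated start of the gene. Capitals mark matches to the motifs listed after the sequences.
Crispld2, chr8:119992188-119992437, plus strand: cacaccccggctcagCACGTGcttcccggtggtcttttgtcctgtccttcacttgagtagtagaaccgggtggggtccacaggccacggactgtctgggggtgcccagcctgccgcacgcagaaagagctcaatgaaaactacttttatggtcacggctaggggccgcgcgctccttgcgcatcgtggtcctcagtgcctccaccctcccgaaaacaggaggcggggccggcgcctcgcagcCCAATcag
Esm1, chr13:113209409-113209658, plus strand: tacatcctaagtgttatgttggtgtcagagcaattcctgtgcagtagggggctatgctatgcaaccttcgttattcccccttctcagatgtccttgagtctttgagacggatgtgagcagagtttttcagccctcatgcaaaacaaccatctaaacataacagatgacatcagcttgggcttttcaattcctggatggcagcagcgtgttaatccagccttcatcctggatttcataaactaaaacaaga
Cyp4f15, chr17:32685409-32685630, plus strand: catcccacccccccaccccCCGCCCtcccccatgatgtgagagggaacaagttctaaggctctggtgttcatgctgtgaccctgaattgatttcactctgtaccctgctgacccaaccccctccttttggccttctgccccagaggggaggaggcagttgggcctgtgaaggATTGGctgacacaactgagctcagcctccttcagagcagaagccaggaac

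For Hpgds the window in the promoter table lies inside the annotated gene, so its letters are not printed. The table gives for each gene 250 bases before and 50 after 1 annotated start, and all 4 genes matched by symbol. Motifs were searched on both strands of the full 300-base window of each gene. The full palindromic estrogen response element, the sequence bound by dimers of estrogen receptors, was found in none of the 4 windows and in 0.0548% of all 32851 windows. Its single arm AGGTCA (16.3% of all windows), the glucocorticoid receptor arm AGAACA (19.0%) and the TATA sequence TATAAA (13.6%) were also found in none of the 4. The CCAAT box, present in 37.4% of all windows, was found in 2 of the 4. It starts 8 bases before the start of Crispld2, and lies on the opposite strand 78 bases before the start used for Cyp4f15. A GGGCGG box (35.7% of windows) was found on the opposite strand in Cyp4f15, and the E-box core ACGTG (19.6%) on both strands of 1 palindrome in Crispld2. No motif searched was found in the windows of Esm1 or Hpgds, and none was shared by more than 2 of the genes. The windows also differed in composition. Crispld2 had 63% G and C and 20 CpG dinucleotides, against medians of 52.7% and 7 over all windows. Cyp4f15 had 55% and 2 CpG, Esm1 46.3% and 5 CpG, and Hpgds 46.7% and 5 CpG.

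The 6 libraries held 16078675 to 19137059 reads assigned to genes. A single read was then worth between 0.0109 and 0.0130 RPKM for Crispld2, and between 0.00813 and 0.00968 RPKM for the longer Hpgds mRNA. The comparison of HE and NC over all genes used limma on log2(RPKM + 0.1), a scale that understates the difference of genes near 0.1 RPKM. Requiring an adjusted p under 0.05 together with a 1-unit log2 difference either way, limma called 0 genes (0% of 13952), and the smallest adjusted p was 0.148. By the unadjusted p under 0.05, used here as a looser criterion, 1647 genes (11.8%) were lower in HE and 1211 (8.68%) were higher. All 3 HE samples lay below all 3 NC samples in 17.9% of the tested genes and above them in 14.8%. limma's voom on the read counts also called 0 genes. The paper, which used the count test DESeq2 at the same cutoffs, reports differentially expressed mRNAs in both directions. The 0 called here therefore holds for these limma fits of all 6 samples and not for every method. The median difference over all tested genes was -0.06 on the log2 scale. The neural progenitor marker Sox2 was at 195 to 209 RPKM in NC and at 176, 172 and 97.3 RPKM in HE1, HE2 and HE3. Nes was at 158 to 204 RPKM in NC and 154 to 247 RPKM in HE, so both markers were present in every sample. Of 13 tested neural progenitor markers, 11 had a difference below 0 and 2 above. In 5, Sox2 included, the groups did not overlap with HE lower, and in 0 with HE higher. The astrocyte markers Aldh1l1 and Gfap were also abundant, at 482 to 698 and 195 to 754 RPKM over the 6 samples. The share of each cell type was not tested. HE3 stood apart from the other samples in part of the transcriptome. Its summed level of glucocorticoid-induced genes was 1155 RPKM against 2411 to 2961 RPKM in the other 5. Most of that sum was Mt1, at 694 RPKM in HE3 and 1362 to 1667 RPKM in the others. Not every gene of that list was low in HE3, and Fkbp5 was highest there, at 7.73 RPKM. Vegfa, outside that list, was at 33.6 RPKM in HE3 and 364 to 436 RPKM in the others. Without HE3 the differences of Crispld2, Esm1, Cyp4f15 and Hpgds given below were -1.75, -2.78, -1.72 and -1.37. Without NC3, the low control for all 4, limma called 103 genes instead of 0 and the differences of the 4 genes were -1.89, -3.07, -1.92 and -1.49.

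Crispld2 was the most abundant of the 4 mRNAs. Its level was 61.1 RPKM in NC1, 62.0 in NC2 and 43.5 in NC3, against 17.4, 15.2 and 17.3 RPKM in HE1, HE2 and HE3. The groups did not overlap, NC3 was the low control sample, and the 3 HE samples lay close together. The means were 55.6 ± 10.4 RPKM (SD, n = 3) in NC and 16.6 ± 1.21 RPKM (SD, n = 3) in HE, a ratio of 3.34, so that 29.9% of the NC level was measured in HE. The difference was -1.72 on the log2 scale (SE 0.16). This was a shift from the upper end of the transcriptome towards its middle. Its NC level was above that of 93.2% of tested genes and its HE level above that of 75.9%. Between 3940 and 5672 reads per NC sample and between 1327 and 1486 per HE sample stood behind these values. Counting error alone would give a coefficient of variation of 1.41% in NC and 2.67% in HE, and the observed values were 18.8% and 7.30%, so the spread of Crispld2 came mainly from differences between samples. In these bulk samples, fewer cells that express a gene and less of its mRNA per cell cannot be told apart, for Crispld2 as for the other 3 genes.

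Esm1 had the widest separation between the groups and also the widest scatter within them. It was at 9.81 RPKM in NC1, 21.98 in NC2 and 9.34 in NC3, and at 1.41, 2.18 and 1.48 RPKM in HE1, HE2 and HE3. NC2 was more than 2 times as high as either other control sample, and HE2 was the highest of the HE samples, yet the lowest NC value was still 4.29 times the highest HE value. The means were 13.7 ± 7.17 RPKM (SD, n = 3) in NC and 1.69 ± 0.422 RPKM (SD, n = 3) in HE. Their ratio was 8.11, with 12.3% of the NC level measured in HE, and the difference was -2.86 on the log2 scale (SE 0.35). Without NC2 the difference was -2.46. The read counts were 386, 882 and 371 in NC and 53, 87 and 50 in HE. An exact Poisson 95% interval, which covers counting error only, gave 1.06 to 1.85 RPKM for HE1, 1.74 to 2.68 RPKM for HE2 and 1.10 to 1.96 RPKM for HE3. The coefficient of variation was 52.3% in NC and 24.96% in HE, against 4.28% and 12.6% from counting.

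The scatter of Esm1 goes against a description of the 4 genes as having little spread. Its residual SD within groups was 0.54 on the log2 scale, larger than in 89.0% of tested genes, whose median was 0.23. Crispld2 (0.22), Cyp4f15 (0.22) and Hpgds (0.18) lay below that median, with 47.3%, 47.7% and 34.5% of tested genes having a smaller SD.

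Cyp4f15 was at 5.04 RPKM in NC1, 5.15 in NC2 and 3.70 in NC3, and at 1.47, 1.19 and 1.17 RPKM in HE1, HE2 and HE3. As for Crispld2, NC1 and NC2 lay together, NC3 was lower, and all HE samples lay below NC3. The means were 4.63 ± 0.808 RPKM (SD, n = 3) in NC and 1.28 ± 0.165 RPKM (SD, n = 3) in HE, a ratio of 3.62, and the difference was -1.77 on the log2 scale (SE 0.19). Between 160 and 225 reads per NC sample and between 43 and 60 per HE sample were counted. The scatter in HE, with a coefficient of variation of 12.9%, was no larger than the 13.9% that counting gives at this depth, so the order of the 3 HE samples was not resolved. In NC the coefficient of variation was 17.4% against 7.07% from counting.

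Hpgds was the least abundant of the 4 mRNAs in both groups. It was at 1.08 RPKM in NC1, 0.846 in NC2 and 0.764 in NC3, and at 0.304, 0.261 and 0.261 RPKM in HE1, HE2 and HE3. The highest control was NC1 here, and HE2 and HE3 were alike. The means were 0.896 ± 0.163 RPKM (SD, n = 3) in NC and 0.276 ± 0.0248 RPKM (SD, n = 3) in HE, a ratio of 3.25. The difference was -1.40 (SE 0.21) on the log2(RPKM + 0.1) scale, where the added 0.1 RPKM is a sizeable part of the HE level, and -1.67 with voom on the read counts. The reads numbered 130, 104 and 93 in NC and 35, 32 and 27 in HE. In HE3 the exact Poisson 95% interval ran from 17.8 to 39.3 reads, or 0.172 to 0.380 RPKM. The coefficient of variation in HE was 9.01%, below the 17.9% that counting alone gives, so the small SD of Hpgds in HE is smaller than its reads can resolve. Its level in HE was above that of only 5.96% of tested genes, and in NC above that of 15.6%.

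**Figure D1:**
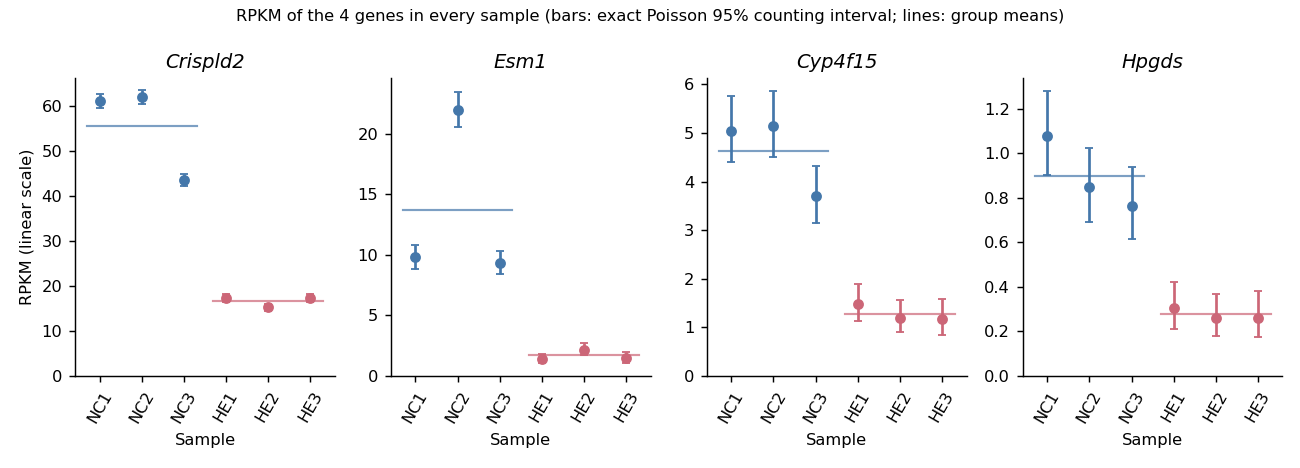
RPKM (vertical axes, linear, from 0) of Crispld2, Esm1, Cyp4f15 and Hpgds in samples NC1 to NC3 (blue) and HE1 to HE3 (red), with exact Poisson 95% counting intervals as bars and group means as lines. In each panel the 3 HE points lie below the 3 NC points, from 17.4 against 43.5 RPKM at the nearest pair of Crispld2 to 0.304 against 0.764 RPKM for Hpgds, and NC2 of Esm1 stands alone at 21.98 RPKM.

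The 4 genes kept the order Crispld2, Esm1, Cyp4f15, Hpgds from high to low RPKM in every NC and every HE sample except that Cyp4f15 lay above Esm1 in HE1. In NC the sample values of neighbours in this order did not overlap. In HE, Esm1 at 1.41 to 2.18 RPKM and Cyp4f15 at 1.17 to 1.47 RPKM overlapped, while Crispld2 lay above and Hpgds below both.

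Taking the lowest NC value against the highest HE value, the ratio was 2.51 for Crispld2, 2.52 for Cyp4f15 and 2.51 for Hpgds. The genes were chosen on this separation, so the ratios and the ranks by gap that follow are a description only. On the log2(RPKM + 0.1) scale no tested gene had a wider gap below NC than Esm1, at 2.05. Crispld2 had a gap of 1.32 with 2 genes wider, Cyp4f15 1.28 with 4 wider, and Hpgds 1.10 with 12 wider. Whether the choice of these 4 genes followed a fixed threshold is not given in the sources used here. Of the genes outside the set, 9 had a wider gap than Hpgds, led by Cnn1 (1.61), Cyp26a1 (1.29) and Cd27 (1.26), which are named outside the rule for named genes. By the size of the mean difference alone the 4 genes were less extreme, with 22 tested genes more strongly lower than Esm1, 96 than Cyp4f15, 105 than Crispld2 and 198 than Hpgds.

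**Figure D2:**
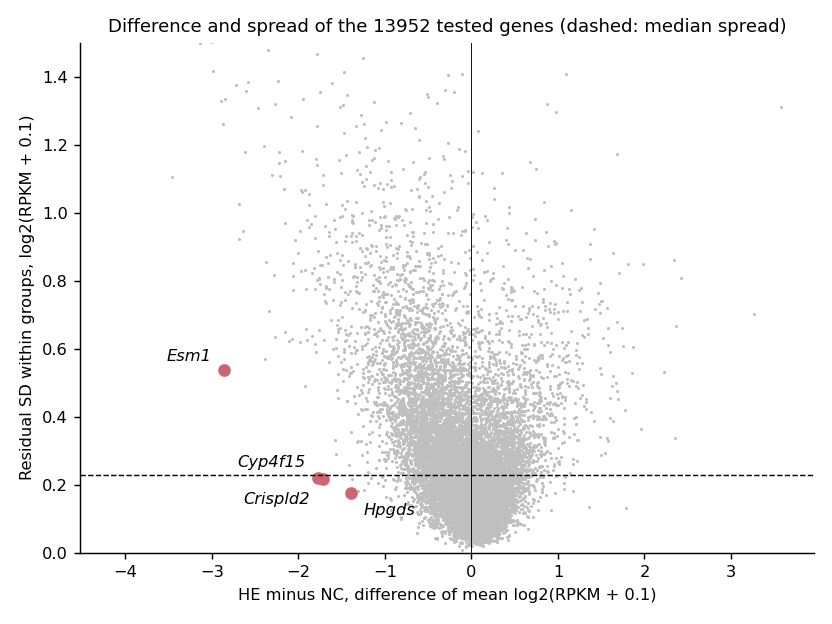
Each grey point is 1 of the 13952 tested genes, placed by its difference HE minus NC on the log2(RPKM + 0.1) scale (horizontal axis) and its residual SD within groups on the same scale (vertical axis; 36 genes lie above its top of 1.5), with the median SD dashed. Crispld2, Cyp4f15 and Hpgds (red) lie at the left edge of the cloud at differences of -1.72, -1.77 and -1.40 below the dashed line, and Esm1 lies farther left at -2.86 but at an SD of 0.54.

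The samples were ordered much alike in the 4 genes. NC3 was the lowest NC sample in all of them, and NC2 the highest in Crispld2, Esm1 and Cyp4f15. HE2 was the lowest HE sample for Crispld2 but the highest for Esm1, so the order within HE was not shared. The Pearson correlation of log2(RPKM + 0.1) over the 6 samples ran from 0.922 (Esm1 and Hpgds) to 0.995 (Crispld2 and Cyp4f15). These values rest mostly on the gap between the groups, which the choice of the genes fixed, and are a description only.

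The tested genes outside the set whose pattern over the 6 samples was most like each member were picked by this correlation. They were Ube2g2 (0.993) and Il34 (0.991) for Crispld2, and Ddah2 (0.998), Mrgpre (0.993) and Wnt5b (0.992) for Esm1. Apobec3 was most like Cyp4f15 (0.992), and Esd (0.998), Apobec3 (0.994) and Fam174b (0.993) were most like Hpgds. Several of these genes differed far less between the groups than the members did. The differences were -0.34 for Esd, -0.35 for Ddah2, -0.51 for Ube2g2, -0.61 for Wnt5b and Fam174b, -0.78 for Apobec3, -0.93 for Mrgpre and -1.02 for Il34, each on the log2 scale. The order of the 6 samples was the same as in the member for Wnt5b with Esm1 and Apobec3 with Hpgds (Spearman rho 1). It differed for the others named (rho 0.829 to 0.943). The reads do not resolve the order of HE2 and HE3 in Hpgds, at 32 and 27 reads, or of HE1 and HE3 in Esm1, at 53 and 50. The genes named were the most alike of 12619 compared, so a shared order is a description only.

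The relatives of Crispld2 in the CAP superfamily did not move together. Of 5 tested relatives, 1 was lower and 1 higher in HE by the looser criterion, and the list median was 0.11 on the log2 scale. Glipr2, a Golgi-associated CAP protein, was at 81.6, 108 and 81.9 RPKM in NC and at 64.1, 55.8 and 48.1 RPKM in HE. Its groups did not overlap, and the difference was -0.69 (SE 0.16, adjusted p = 0.195). Crispld1, the closest relative of Crispld2 in the mouse genome, was at 0.283, 0.220 and 0.246 RPKM in NC and at 0.767, 0.499 and 0.523 RPKM in HE. It was higher in every HE sample, the opposite direction to Crispld2, with a difference of 0.98 (SE 0.23, adjusted p = 0.195). Both rest on the looser criterion, which 11.8% and 8.68% of all tested genes met in the lower and the higher direction. Pi15, Pi16 and Clec18a differed by 0.11, 0.15 and 0.09 and had overlapping groups.

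The list for Cyp4f15 held its family 4 relatives and Por, the reductase that passes electrons to microsomal P450 enzymes and is not itself a P450. Its largest difference was in Por. Por was at 91.5, 88.4 and 93.3 RPKM in NC and at 52.4, 48.0 and 34.7 RPKM in HE. The 3 controls were nearly equal and every HE sample lay far below them. The means were 91.0 ± 2.50 RPKM (SD, n = 3) and 45.01 ± 9.20 RPKM (SD, n = 3), with a difference of -1.04 (SE 0.16, adjusted p = 0.195), which passed the looser criterion and not the adjusted one. In the main fit of all 6 samples, the 5 tested family 4 enzymes missed the looser criterion. Their differences were -0.78 for Cyp4v3, -0.54 for Cyp4f14, -0.49 for Cyp4f13, -0.41 for Cyp4f17 and 0.09 for Cyp4f16. The median of the 6 genes, Por included, was -0.52, or -0.29 without NC2. Besides Por, 3 family 4 enzymes (Cyp4v3, Cyp4f14 and Cyp4f17) met the looser criterion without NC3 and 2 (Cyp4v3 and Cyp4f13) without HE1, all lower in HE. With all 6 samples, Cyp4v3 also met it with a pseudocount of 1, median-of-ratios scaling or voom. A replicate block added Cyp4f17 to Cyp4v3, both lower in HE. The NC levels of Cyp4f13 (8.84 RPKM), Cyp4f16 (8.21 RPKM) and Cyp4f17 (13.7 RPKM) were above that of Cyp4f15, so in controls Cyp4f15 was not the most abundant enzyme of its family. Cyp4f37 and Cyp4f40, which lie next to Cyp4f15 on the chromosome, held at most 0.0852 RPKM in any sample.

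Hpgds makes prostaglandin D2 from prostaglandin H2, which the cyclooxygenases Ptgs1 and Ptgs2 supply. Of 21 tested genes of prostaglandin synthesis, breakdown and receptors, 5 were lower and 1 higher in HE by the looser criterion, against 11.8% and 8.68% of all tested genes, and the median was -0.19. The lower count was 2 without NC1 and 3 without NC2, and the higher count was 0 without HE1 and 2 without HE2. The inducible cyclooxygenase Ptgs2 was at 3.58, 1.45 and 1.38 RPKM in NC and at 1.07, 0.641 and 0.258 RPKM in HE. Its groups did not overlap but NC1 stood apart, and the difference was -1.59 (SE 0.52, adjusted p = 0.197). The constitutive cyclooxygenase Ptgs1 had the opposite direction at a low level, with 0.137, 0.0269 and 0.163 RPKM in NC and 0.532, 0.283 and 0.272 RPKM in HE. The difference was 1.17 (SE 0.37, adjusted p = 0.195).

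Ptgds, the lipocalin-type synthase that makes the same product as Hpgds, was at 23.3, 28.7 and 20.7 RPKM in NC and 20.5, 18.1 and 29.0 RPKM in HE. The groups overlapped and the difference was -0.12 (SE 0.20). Ptgds was thus the more abundant prostaglandin D synthase mRNA by more than 20 times in both groups. Of the receptors for prostaglandin D2, Ptgdr2 was at 0.306 ± 0.0761 RPKM (SD, n = 3) in NC and 0.150 ± 0.0204 RPKM (SD, n = 3) in HE, with a difference of -0.68 (adjusted p = 0.206), and Ptgdr was at most 0.0494 RPKM. Mgll, a lipase that frees arachidonate, differed by -0.97, and Abcc4, a prostaglandin exporter, by -0.58, both with groups that did not overlap and an adjusted p of 0.195. Ptges, a prostaglandin E synthase, differed by -0.50 with overlapping groups and lay just inside the looser criterion. Hpgd, which inactivates prostaglandins, differed by -0.55 with overlapping groups. The remaining tested genes of the list, from the phospholipases Pla2g4a (-0.47) and Pla2g6 (-0.09) to the synthases Ptges2 (0.31) and Ptges3 (0.19) and the receptors Ptger1 (-0.40) and Ptger4 (-0.36), missed the looser criterion.

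The other glutathione transferases, the wider family of Hpgds, had a median of 0.17. Of 19 tested, 0 were lower and 6 higher in HE by the looser criterion of limma's unadjusted p under 0.05. These counts stand against 11.8% and 8.68% of all tested genes, and the difference from these shares was not tested. The higher count was 3 without NC2 or without HE1, and 4 without any other sample. Gstk1 differed by 0.39 from 7.09 to 9.33 RPKM, Gstt1 by 1.49 from 11.4 to 32.2 RPKM and Gstcd by 0.44 from 2.97 to 4.05 RPKM. Hpgds thus lay lower in HE while none of its tested relatives did by that criterion under limma on RPKM. Genes of the lipoxygenase, leukotriene and epoxide routes, whose products the Cyp4f enzymes act on, had a median of 0.13 over 10 tested, with 0 lower and 1 higher by the same criterion. The higher count was 0 without NC3 or HE1 and 2 without NC2 or HE3, and the median was 0.056 without NC1 and 0.23 without NC2.

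**Figure D3:**
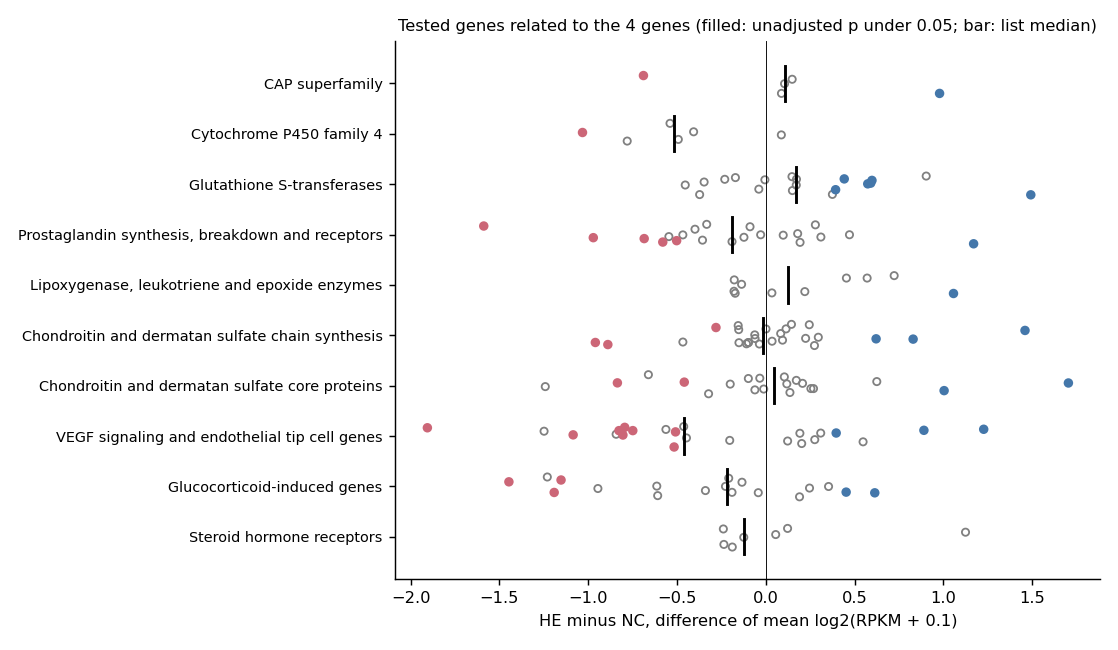
Difference HE minus NC on the log2(RPKM + 0.1) scale (horizontal axis) of every tested gene in 10 lists related to the 4 genes (rows), which are themselves left out, with filled points at an unadjusted limma p under 0.05 (red lower, blue higher) and black bars at the list medians. Medians run from -0.52 for the cytochrome P450 family 4 list, which includes Por, to 0.17 for the glutathione transferases. Filled points stand on both sides of 0 in 6 of the 10 lists.

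Esm1 carries a dermatan sulfate chain. Of 26 tested genes for the synthesis of chondroitin and dermatan sulfate chains, 3 were lower and 3 higher by the looser criterion. These counts stand against 11.8% and 8.68% of all tested genes, and the list median was -0.02. The lower count was 0 without NC1, 1 without HE2 and 2 without NC2, NC3 or HE3, and the higher count was 2 without NC1 or NC2. Dse, the epimerase that turns chondroitin into dermatan sulfate, was at 6.41, 6.11 and 3.79 RPKM in NC and 3.58, 2.94 and 2.11 RPKM in HE. The lowest control and the highest HE sample were close, and the difference was -0.89 (SE 0.27, adjusted p = 0.195). Chpf2, a chain polymerising factor, differed by -0.28. In the other direction, Csgalnact1, which starts chondroitin chains, differed by 0.62, and the sulfotransferases Ust and Chst7 by 0.83 and 1.46. Among 20 tested core proteins that carry such chains, 2 were lower (Cd44, -0.84, and Sdc1, -0.46) and 2 higher by the looser criterion, of which Dcn (1.70) had groups that did not overlap, and the median was 0.05. The lower count was 4 without NC3, and the higher count was 1 without NC1, NC2, HE1 or HE2 and 3 without HE3.

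The list of VEGF and endothelial tip cell genes read beside Esm1 also held Hgf, Met and the adhesion genes Icam1, Itgal and Itgb2. Of its 23 tested genes, 8 were lower and 3 higher by the looser criterion, with a median of -0.46. The lower ones included Hgf, Met and Icam1, so these values are not those of VEGF and tip cell genes alone. Over all tested genes 11.8% were lower and 8.68% higher, and the difference between the list and these shares was not tested. Without HE3 the median was -0.17. The lower count was 2 without NC1 or NC2, 4 without NC3 and 5 without HE1. Unc5b, a netrin receptor of tip cells, was at 22.1 ± 0.451 RPKM (SD, n = 3) in NC and 13.1 ± 4.04 RPKM (SD, n = 3) in HE, a difference of -0.80. Met, the receptor of hepatocyte growth factor, was at 6.91, 7.74 and 4.87 RPKM in NC and 3.39, 2.37 and 0.502 RPKM in HE, and differed by -1.91, or by -1.14 without HE3. Its ligand Hgf differed by -0.83 at levels under 0.4 RPKM. The VEGF co-receptors Nrp2 and Nrp1 were higher in every HE sample, by 1.23 and 0.40, as was Cd34, by 0.89. None of these genes passed the adjusted criterion.

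Crispld2 is known as a glucocorticoid-induced gene. Of 18 tested genes with that property, 3 were lower and 2 higher by the looser criterion, against 11.8% and 8.68% of all tested genes. The median was -0.22, or -0.36 without NC1, -0.10 without NC2, -0.38 without HE1, -0.49 without HE2 and 0.04 without HE3. The lower count was 5 without HE2, and the higher count was 0 without NC1, NC3 or HE1, 1 without HE2 and 4 without HE3. The lower ones were Plin4 (-1.45), Pdk4 (-1.19) and Nfkbia (-1.15), and the higher ones Sult1a1 (0.61) and Sgk1 (0.45). With all 6 samples, none of the 7 tested steroid hormone receptors passed the looser criterion in limma in either direction, and 1, the orphan receptor Esrrb, was higher without NC2 or without HE1. Nr3c1, the glucocorticoid receptor, differed by -0.24 (SE 0.17), from 11.47 to 9.72 RPKM. The estrogen receptors Esr1, at most 0.0345 RPKM, and Esr2, at most 0.133 RPKM, had too few reads to be tested in these cultures, and Gper1, a membrane receptor for estradiol, differed by -0.19 (adjusted p = 0.617). Esr1, Esr2, Esrrb, Nr3c1 and Gper1 are named outside the rule for named genes, after their values were seen.

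The chromosomal neighbours of the 4 genes did not share their difference. The 3 nearest protein-coding genes on either side gave 24 neighbours, of which 21 were in the table and 14 were tested. Of these 14, 0 were lower and 0 higher by the looser criterion of limma's unadjusted p, against 11.8% and 8.68% of all tested genes. The median difference was 0.02. Usp10 and Zdhhc7, on either side of Crispld2, differed by 0.06 and -0.09. Gpx8 and Snx18, the tested neighbours on either side of Esm1, differed by 0.10 and 0.15, and Zfp871, the nearest tested neighbour of Cyp4f15, by -0.01. Smarcad1 lies 1.23 kb from Hpgds and differed by -0.07. Its 3 HE samples, at 2.05 to 2.13 RPKM, lay below the 3 NC samples, at 2.16 to 2.26 RPKM, and it was the 1 neighbour in which the groups did not overlap, a pattern met by 17.9% of tested genes.

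**Figure D4:**
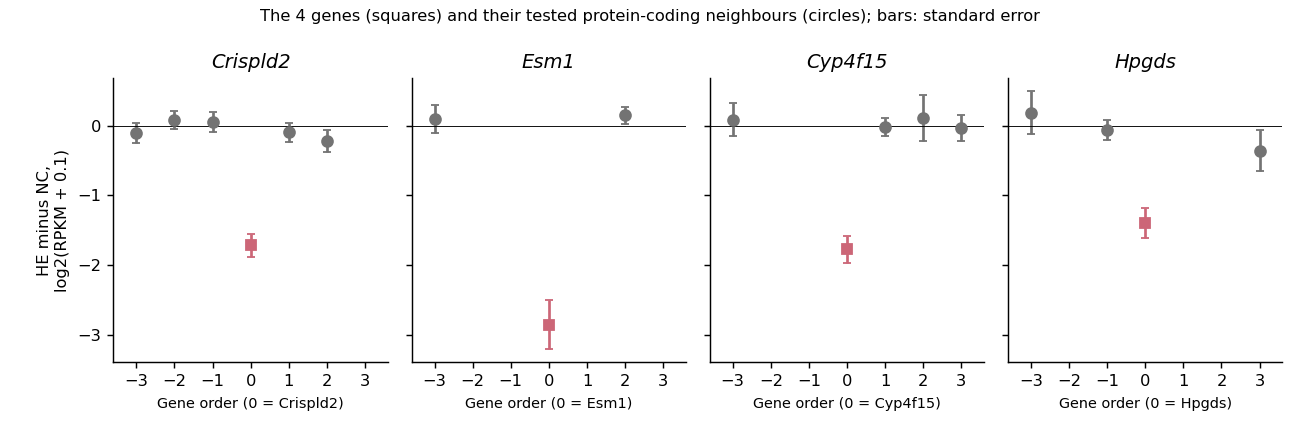
Difference HE minus NC on the log2(RPKM + 0.1) scale (vertical axis) with its standard error for the 4 genes (red squares, position 0) and those of their 3 protein-coding neighbours on either side that were tested (grey circles), in order along the chromosome (horizontal axis). The squares lie between -2.86 and -1.40 and the circles near 0.

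Markers of other cells that the cultures could hold were read beside the 4 genes, since Esm1, Hpgds and Crispld2 are known from endothelial, blood-derived and mesenchymal cells. Of the endothelial list, 7 of 13 genes were tested, and 0 were lower and 3 higher by limma's looser criterion. The shares over all tested genes, for this and the other marker lists, were 11.8% lower and 8.68% higher. The summed level was 4.22 to 6.08 RPKM in NC and 6.38 to 8.88 RPKM in HE, opposite to Esm1. That separation rests on Cdh5. Flt1 and Erg differed by -0.20 and -0.05, and the other 5 tested genes lay above 0. The defining marker Pecam1 was at most 0.170 RPKM in any sample and Sox17 was at 0 in all 6, while Cdh5 was at 0.341 to 0.755 RPKM in NC and 1.66 to 2.75 RPKM in HE. In NC, Esm1 at 9.34 to 21.98 RPKM was thus above the summed level of the whole endothelial list.

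The mesenchymal and perivascular list, with 12 of 14 genes tested, had 0 lower and 3 higher by limma's looser criterion and summed to 82.7 to 186 RPKM in NC and 112 to 234.4 RPKM in HE. Col3a1 was at 12.2 to 43.3 RPKM in NC and 45.7 to 92.7 RPKM in HE, and Col1a1 was at 1.64 to 6.06 RPKM and 3.10 to 8.30 RPKM. These groups were higher or overlapping in HE, where Crispld2 was lower. The microglia and macrophage list, with 6 of 15 genes tested, had 1 lower and 2 higher, and its sums overlapped at 12.5 to 18.4 RPKM in NC and 12.6 to 19.2 RPKM in HE. Most of the NC sum was Cd68, which was lower in HE. The other 14 genes summed to 1.76 to 2.28 RPKM in NC and 4.01 to 14.6 RPKM in HE, in a sum taken after the values were seen. That sum was higher in every HE sample, but its genes did not all rise. Means of Ctss, C1qb and Tmem119 were 0.0648, 0.0326 and 0.479 RPKM in NC and 1.66, 1.24 and 1.39 RPKM in HE. Means of P2ry12, Fcer1g and Aif1 were 0.304, 0.523 and 0.138 RPKM in NC and 0.299, 0.454 and 0.123 RPKM in HE. C1qa was at 0 to 0.0508 RPKM in NC and 0.252 to 3.17 RPKM in HE, and Cx3cr1 was at most 0.269 RPKM in any sample.

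Of the mast cell and megakaryocyte list only 2 of 11 genes, Itga2b and Hdc, were tested, and both were lower in HE by the looser criterion. The summed level of the list was 5.11 to 5.90 RPKM in NC and 2.74 to 3.69 RPKM in HE. Most of that sum was Itga2b, at 4.65 to 5.43 RPKM in NC and 1.07 to 3.01 RPKM in HE, named after its values were seen. Without Itga2b the sums overlapped, at 0.456 to 0.548 RPKM in NC and 0.445 to 1.67 RPKM in HE. Pf4, a megakaryocyte product also named after its values were seen, was at 0 to 0.146 RPKM in NC and 0.0775 to 1.47 RPKM in HE. The defining mast cell markers were at or near 0, with Fcer1a at 0 in all 6 samples and Cpa3 at 0 in 5 of 6. The part of Itga2b-expressing cells in the Hpgds difference was not tested. By the same criterion in limma, 2 of 13 neural progenitor and 2 of 6 ependymal markers were lower, 2 of 12 neuronal and 3 of 9 astrocyte markers were higher, and 0 of 9 oligodendrocyte lineage and 0 of 5 choroid plexus markers passed in either direction.

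**Figure D5:**
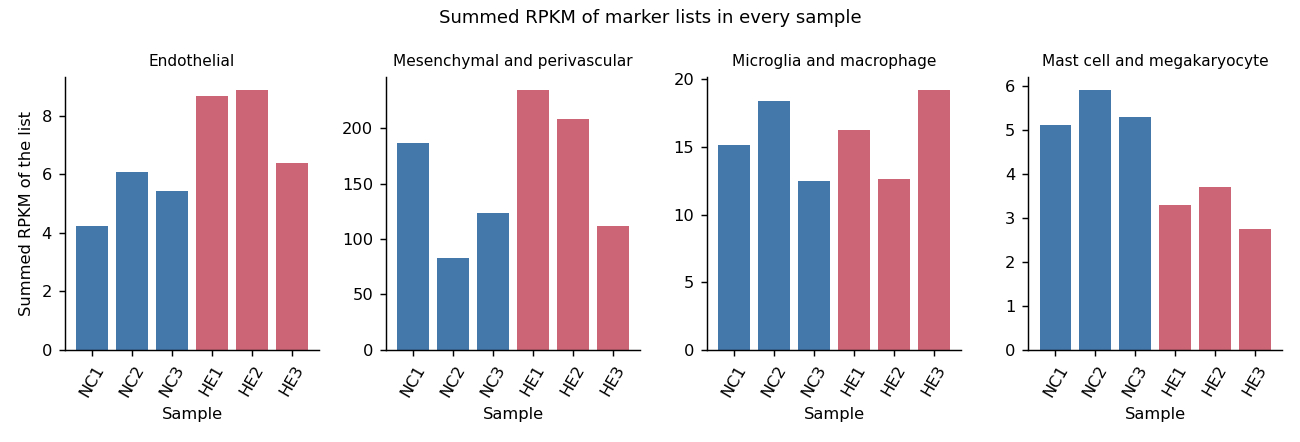
Summed RPKM (vertical axes, linear, from 0) of the endothelial, mesenchymal and perivascular, microglia and macrophage, and mast cell and megakaryocyte marker lists in samples NC1 to NC3 (blue) and HE1 to HE3 (red). The endothelial sums are higher in HE (6.38 to 8.88) than in NC (4.22 to 6.08), a separation that rests on Cdh5. The mast cell and megakaryocyte sums are lower in HE (2.74 to 3.69 against 5.11 to 5.90). The other sums overlap, that of microglia and macrophage being mostly Cd68 in NC.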

How the data were processed

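RNA-Seq libraries came from 3 HE and 3 NC pools of hypothalamic NSC/NPCs at passage 1. The authors aligned the filtered reads to the mouse genome with TopHat2 and counted them per gene. The submitters' processing notes also name CASAVA 1.7, while the aligner version, the counter and its use of strand are not given in the sources used here. The deposited read counts are whole numbers that the authors did not normalize, and the deposited RPKM were computed by the authors from count, gene length and library total, a formula that was checked and differed by at most 4.99e-07. The paper and the labels name different sequencers.

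Large counts carry a comma between digits, which the unit check did not accept, so a count test with edgeR or DESeq2 was not run. Instead, group means were compared in limma 3.58.1 (R 4.3.3, trended prior variance, no covariate) on log2(RPKM + 0.1) with Benjamini-Hochberg adjustment. A gene entered the fit if its rate matched 10 reads in a median library in 3 or more samples, with 15 or more reads over all 6, and the fit was tested on simulated data. Depth was 16078675 to 19137059 reads per sample. A p-value sets the difference between the groups against the spread between these samples, and Poisson intervals cover counting error only. The number of dams or litters behind the pools is not given in the sources used here. Whether the pools of a group came from separately treated dams is therefore not known.

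The members and all lists were chosen with earlier results of these data known. Named were the members, the 3 tested genes most correlated with each, the 3 neighbours on either side, tested relatives in the CAP, P450 and prostaglandin lists, up to 3 genes a direction with the smallest unadjusted p among those past the looser criterion without overlap in the other lists, and Sox2, Nes, Pecam1, Cdh5, Col1a1, Col3a1, C1qa, Cx3cr1 and Cpa3. Any other gene was named after its values were seen. Alternatives were a pseudocount of 1, median-of-ratios scaling, voom, a replicate block, other filters and each sample left out.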

Additional observations from a re-analysis of the deposited data

How the results depend on the processing

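The 4 members stayed lower in HE under all 10 alternatives, an outcome that their choice by well separated groups all but fixed. A pseudocount of 1 gave -1.30 for Cyp4f15 and -0.57 for Hpgds, where the added amount exceeds the level, and voom gave -1.67 for Hpgds. With 1 sample left out, differences ran from -1.89 to -1.63 for Crispld2, -3.07 to -2.46 for Esm1, -1.92 to -1.69 for Cyp4f15 and -1.49 to -1.27 for Hpgds. The replicate block cannot change the differences of the full data, since every replicate number occurs once in each group. It left them at -1.72, -2.86, -1.77 and -1.40, called 0 genes and put 1963 genes lower by the unadjusted p. With the block, 3 genes instead of 1 were lower in the P450 list and 6 instead of 3 among glucocorticoid-induced genes. Whether samples of the same number were handled together is not given in the sources used here. Their deviations from the group means correlated at 0.156, 0.0869 and 0.0603, which cannot decide it. Genes called numbered 0 to 103 with 1 sample left out, the 103 without NC3 and 0 otherwise, and the cause was not tested. The count lower by the unadjusted p then ran from 729 (without NC1) to 1912, and was 971 without NC2. Genes with every HE sample below every NC sample ran from 2790 to 3640 against 2493. List medians with 1 sample left out ran from 0.024 to 0.28 for the CAP list and -0.72 to -0.29 for the P450 list with Por. They ran from 0.056 to 0.23 for lipoxygenase genes and -0.065 to 0.057 for chain synthesis. For the whole VEGF and tip cell list they ran from -0.56 to -0.17, and a pseudocount of 1 gave -0.22. Of 31 named list genes, 16 passed the looser criterion under every alternative and 0 reversed. Depth limits Hpgds most.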
